A study of Mus musculus with 21 samples.

Results

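The CXCL12-CXCR4 axis and the adhesion receptors of HSCs were examined in RNA sequencing data through 9 genes, Cxcl12, Cxcr4, Vcam1, Itga4, Itgb1, Itga6, Cd44, Selplg and Esam, all of which were among the 21000 gene symbols of the count table. The genes were chosen by symbol, and Cxcl12 was also chosen by its values, because at day 6 it was lower after the first and higher after the third administration of 5-FU. For Cxcl12, values of the 4 groups behind that pattern are therefore described without a test. The 21 libraries fell into 7 groups of 3, all from bone marrow HSCs of wild-type mice. The cells were CD150+CD48-Flt3- cells of the Lineage-Sca-1+c-Kit+ (LSK) fraction, sorted from C57BL/6 mice. Mice aged 10 weeks were given PBS or 5-FU intraperitoneally; 5-FU is an antimetabolite that kills dividing blood cells and was used at 150 mg/kg and 21 days between administrations. The groups were PBS once at day 6, 5-FU once at day 6, 5-FU once at day 21, PBS 3 times at day 6, 5-FU 3 times at day 6, 5-FU 3 times at day 21, and untreated mice aged 2 years (old). Day 6 was 5 days and day 21 was 20 days after the last administration. A library of the treated mice was made from 3000 to 3500 cells. No library of untreated young mice and no PBS library of day 21 was analysed here.

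Cxcl12 encodes a chemokine that stromal cells of the bone marrow secrete and that holds HSCs in their niche. Its receptor on HSCs is encoded by Cxcr4, and signalling through it switches integrins to a state of high affinity. The integrin α4β1, built from the products of Itga4 and Itgb1, binds Vcam1 on stromal and endothelial cells, α6β1 binds laminin, Cd44 binds hyaluronan, and Selplg encodes PSGL-1, a ligand of selectins. Esam encodes an adhesion molecule of endothelial junctions that is also a surface marker of HSCs.

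The libraries held 22184885 to 38649033 counts, with a median of 26962256. Levels are given as normalized CPM, the counts per 1000000, with TMM factors over the 21 libraries, and 3 counts, taken as the floor of a library, were worth 0.0776 to 0.135 CPM. Of 12 HSC marker genes, none was at 0 in any group, and Kit (579 to 1391 CPM) and Slamf1, which encodes CD150 (37.6 to 62.2 CPM), were among them. Of the genes of antigens that the sort selects against, Ly6g was at 0 to 2.64 CPM and Cd8a at 0 in all 21 libraries, whereas Cd48 was at 1.36 to 12.04 CPM, Flt3 at 3.20 to 30.0 CPM and Itgam, which encodes a chain of Mac-1, at 4.96 to 49.1 CPM. Cd48 rose at day 6 by 0.82 on the log2 scale (adjusted p = 0.0262) after 5-FU once and by 1.90 (adjusted p = 0.00374) after 5-FU 3 times, and Flt3 fell by 1.97 (adjusted p = 0.00550) and 1.18 (adjusted p = 0.0120). At day 6 after 5-FU the authors left the Mac-1 antibody out of the lineage stain and took c-Kit-dim cells into the gate. They state that the gate was not widened at other times, but not whether Mac-1 was stained in every other group. The gate and the treatment therefore cannot be told apart at day 6. In bulk libraries, fewer cells of a kind and less RNA per cell cannot be told apart either. The column names of the 6 libraries of PBS once and 5-FU once at day 6 carried a suffix that the others lacked, its meaning is not stated, and comparisons across it cannot be told apart from it. Replicates came from independent experiments, per the methods of the study.

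The ligand and receptor genes were located on the mm10 genome. Cxcl12 is at chr6:117168535-117181367 on the plus strand and Cxcr4 at chr1:128588199-128592293 on the minus strand (GENCODE vM21). To show the regulatory context of the gene whose level varied most and of its receptor, the 250 bases before the RefSeq transcription start (GRCm38.p6) are printed, 5′ to 3′ on the strand of the gene, from chr6:117168285-117168534 and chr1:128592300-128592549. Capitals mark matches of 3 motifs on either strand, the GC box (GGGCGG), the core of a hypoxia response element (ACGTG) and the TATA box (TATAAA).
Cxcl12: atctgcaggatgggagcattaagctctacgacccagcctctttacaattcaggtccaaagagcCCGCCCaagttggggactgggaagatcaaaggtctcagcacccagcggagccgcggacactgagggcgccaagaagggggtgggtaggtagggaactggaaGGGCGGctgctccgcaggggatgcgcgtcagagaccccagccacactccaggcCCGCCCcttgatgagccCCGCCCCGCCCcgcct
Cxcr4: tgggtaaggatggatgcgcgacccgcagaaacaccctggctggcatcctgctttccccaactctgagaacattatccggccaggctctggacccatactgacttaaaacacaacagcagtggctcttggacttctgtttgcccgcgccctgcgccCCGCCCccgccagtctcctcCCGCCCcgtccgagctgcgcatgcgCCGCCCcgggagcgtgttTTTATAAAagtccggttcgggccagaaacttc
The Cxcl12 stretch held 5 GC boxes, of which a pair overlapped, and no TATA box, and the Cxcr4 stretch held 3 GC boxes and 2 overlapping TATA box matches, 1 on each strand. Neither held the hypoxia core. Of 32851 promoters of the same length, 32.7% held a GC box, 16.6% the hypoxia core and 12.4% the TATA box. Sequences were matched for 5 of the 9 genes, and no binding was measured.

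Per kilobase of the longest transcript, the 9 genes spanned a wide range of levels. Cd44 had the highest level per kilobase of the 9 in all 21 libraries, with a median of 101.3 CPM per kb, and Itga6 was next in all 21, with a median of 47.7 CPM per kb. Esam (23.5 CPM per kb), Itgb1 (20.8 CPM per kb) and Selplg (18.9 CPM per kb) lay close together and changed places between libraries. Cxcr4 (5.28 CPM per kb) and Itga4 (5.23 CPM per kb) followed, and Cxcl12 (0.605 CPM per kb) and Vcam1 (0.552 CPM per kb) had the lowest medians. Of the integrin chains, Itga6 was 1.62 to 2.92 times Itgb1 per kilobase, while Itga4 was 0.208 to 0.308 times Itgb1. On this scale α6 transcript exceeded α4 transcript by 7.02 to 12.1 times in every library. The ratio rests on longest transcripts of 4.31 kb for Itga6 and 9.767 kb for Itga4, and without length their medians were 205.5 and 51.1 CPM. Which transcripts the cells held was not determined, and the order of genes can change with the length used. The plot of levels per length shows the ranges.

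**Figure D1:**
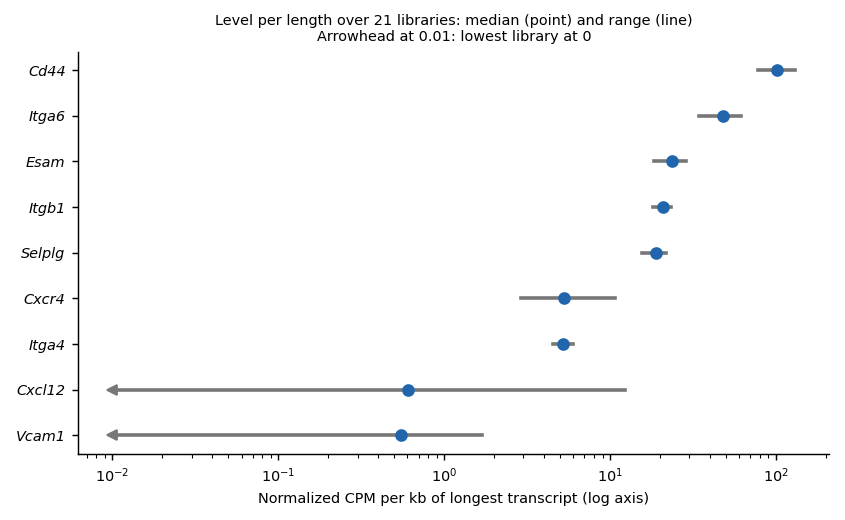
Level of each of the 9 genes in normalized CPM per kilobase of its longest GENCODE transcript (log axis), with the median of 21 libraries as a point and the range as a line; an arrowhead marks a lowest library at 0. Cd44 and Itga6 lie highest, and the ranges of Cxcl12 and Vcam1, which reach 0, are the widest.

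Cxcl12 was the member whose level varied most, from 0 to 69.6 CPM, with 3 libraries at 0. In PBS once it was 16.6, 69.6 and 40.9 CPM, and in 5-FU once at day 6 it was 1.25, 2.57 and 0.417 CPM. The groups did not overlap, and the lowest PBS library was 6.46 times the highest 5-FU library. The means were 42.4 ± 26.5 CPM (SD, n = 3) and 1.41 ± 1.09 CPM, a fitted log2 fold change of −4.88 (SE 0.69). The SE of a log2 fold change was computed from that change and the F statistic of its edgeR fit. For Cxcl12 in the groups that chose it, the SE therefore describes the fit and gives no support to the pattern.

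After 3 administrations the order was the opposite. In PBS 3 times, Cxcl12 was at 0, 0 and 10.4 CPM, and in 5-FU 3 times at day 6 it was 23.1, 11.1 and 14.5 CPM. These groups did not overlap either, but the lowest 5-FU library was only 1.06 times the highest PBS library. The means were 3.46 ± 6.00 CPM and 16.2 ± 6.18 CPM, a fitted log2 fold change of 2.24 (SE 1.46). This fold rests on replicate 3 of PBS 3 times: the mean of the 5-FU libraries was 1.56 times that library, and at least 168-fold higher than the floor of 3 counts per library (0.0966 CPM) in the other two. The difference between the changes after 3 and after 1 administration was 7.15 on the log2 scale (SE 1.77), which describes the pattern that chose the gene.

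The PBS groups themselves differed in Cxcl12. All 3 libraries of PBS 3 times were below all 3 of PBS once, with a log2 difference of −3.64 (SE 1.38). With all 6 PBS libraries as the control, which averaged 22.9 CPM, the log2 fold change was −3.99 for 5-FU once and −0.49 for 5-FU 3 times at day 6. That control combines PBS 3 times with the higher PBS once libraries, whose values were used to choose the gene. The sign of the change after 5-FU 3 times thus depended on which PBS libraries served as the control. At day 21, Cxcl12 was 4.08, 0.807 and 6.23 CPM after 5-FU once and 9.34, 3.11 and 3.40 CPM after 5-FU 3 times. In old HSCs it was 0, 2.195 and 0.654 CPM, the lowest group mean of the 7 (0.950 ± 1.13 CPM). All libraries of day 21 and of old HSCs lay below the lowest of PBS once (16.6 CPM), whose values chose the gene.

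Of the 7 groups ordered by mean, only 5-FU 3 times at day 6 and the next lower group, 5-FU 3 times at day 21, did not overlap, and the other 5 neighbouring pairs did. This compares neighbours in the order only. For this and the other members, the share of all genes without overlap was not computed. The comparisons that the choice of the gene did not use passed no threshold. Between 5-FU 3 times and 5-FU once at day 21 the log2 difference of Cxcl12 was 0.51 (95% interval −1.51 to 2.54, adjusted p = 0.933, edgeR quasi-likelihood test). Old HSCs were below 5-FU 3 times at day 21 in all libraries, with a log2 difference of −2.45 (95% interval −5.50 to 0.61, adjusted p = 0.343), and adjusted p ranged from 0.182 to 0.626 over the alternatives.

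**Figure D2:**
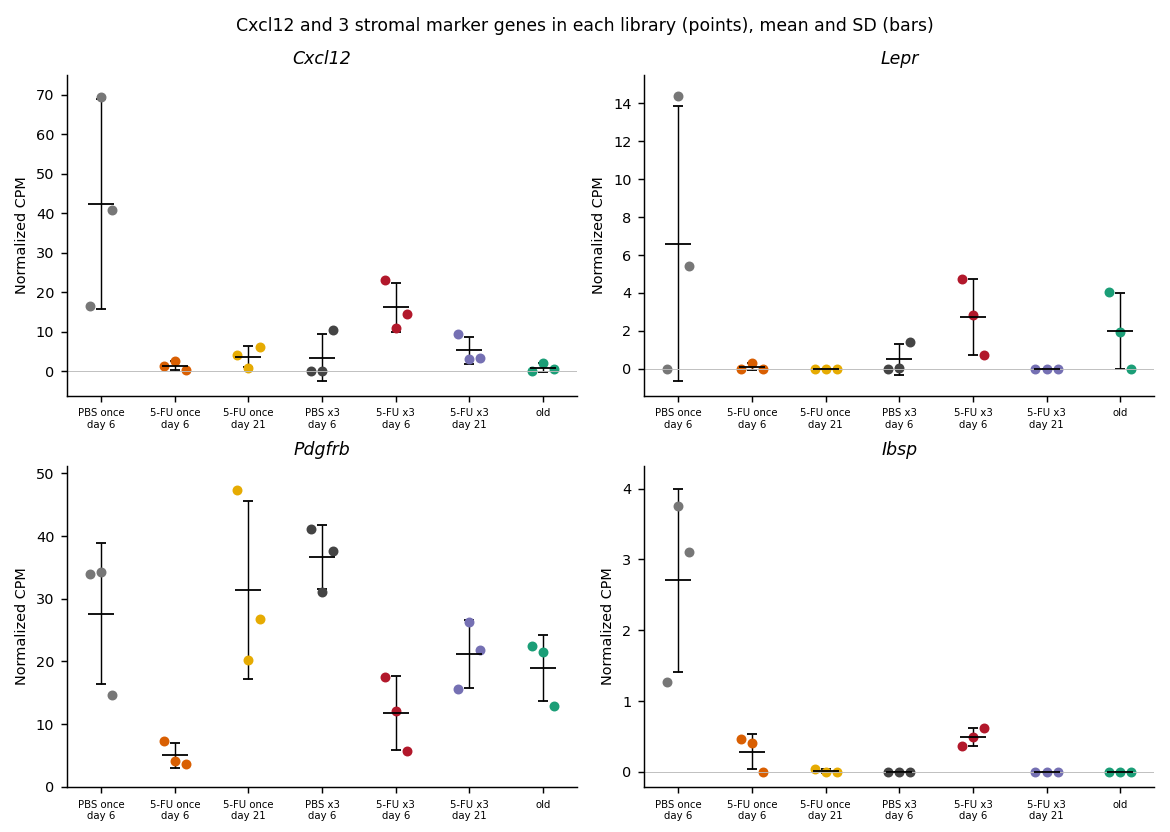
Normalized CPM of Cxcl12 and of the stromal markers Lepr, Pdgfrb and Ibsp in each of 21 libraries (points) of the 7 groups, with the mean and SD of 3 libraries. Cxcl12 is high in PBS once (16.6 to 69.6 CPM), where Lepr reaches 14.4 CPM but is 0 in replicate 1. Cxcl12 and Lepr are both near 0 in 5-FU once at day 6. Pdgfrb goes against Cxcl12 after 3 administrations, at 31.1 to 41.1 CPM in PBS 3 times and 5.72 to 17.6 CPM in 5-FU 3 times at day 6.

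Markers of stromal cells, which are the known source of Cxcl12 in marrow, moved in part with it. Lepr, the leptin receptor of perivascular stromal cells, was 0, 14.4 and 5.42 CPM in PBS once, where the order of the 3 libraries was that of Cxcl12. It was 0, 0.331 and 0 CPM in 5-FU once at day 6, 0, 0.0624 and 1.42 CPM in PBS 3 times, and 4.72, 2.82 and 0.704 CPM in 5-FU 3 times at day 6. Lepr was thus detected in the Cxcl12-rich groups, but also at 4.04 and 1.96 CPM in old libraries with 0 and 2.195 CPM of Cxcl12, and it was at 0 in 11 of the 21 libraries. Ibsp, a bone matrix protein, was 1.27, 3.76 and 3.10 CPM in PBS once and at most 0.619 CPM in any other library. The 18 stromal markers summed to 39.0 to 75.3 CPM in PBS once against 10.0 to 13.7 CPM in 5-FU once, and to 36.8 to 47.2 CPM in PBS 3 times against 14.6 to 28.6 CPM in 5-FU 3 times at day 6. Pdgfrb, a receptor of pericytes, gave 14.7 to 34.2, 3.60 to 7.34, 31.1 to 41.1 and 5.72 to 17.6 CPM of these sums in the order PBS once, 5-FU once, PBS 3 times and 5-FU 3 times, and without it they were 9.15 to 41.0, 5.81 to 7.13, 5.74 to 9.03 and 8.90 to 14.8 CPM. The numbers of the 18 markers at 0 in all libraries of a group were 3, 6, 9 and 6 in the same order, and the collagen Col3a1 and osteocalcin (Bglap) were at 0 in all 21 libraries. Kitl averaged 2.14, 0.442, 0.0753 and 1.69 CPM in that order of groups, and Col1a2 5.86, 3.14, 4.67 and 4.90 CPM. The highest mean of Col1a2 was that of old HSCs (10.4 CPM), where Cxcl12 was lowest. No fixed rule chose the single stromal markers named here. The part of stromal RNA in the Cxcl12 values was not tested.

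Cxcr4 was detected in every library, at 5.23 to 19.3 CPM. After 5-FU once at day 6 it was 10.1, 6.18 and 5.23 CPM, against 9.30, 10.3 and 9.30 CPM in PBS once. Replicate 1 of the 5-FU group lay among the PBS libraries and the other two below them. The log2 fold change was −0.42 (SE 0.24, 95% interval −1.10 to 0.26, adjusted p = 0.2504), and without 5-FU once replicate 1 it was −0.74 with an adjusted p of 0.0359. After 5-FU 3 times at day 6, Cxcr4 was 8.38, 10.6 and 7.80 CPM against 8.29, 6.74 and 8.75 CPM in PBS 3 times. These overlapped, with a log2 fold change of 0.17 (95% interval −0.33 to 0.66, adjusted p = 0.562), and the difference between the 2 changes did not pass (0.60, SE 0.32, adjusted p = 0.415).

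The 2 highest group means of Cxcr4 were those of day 21, where 1 library, 5-FU 3 times replicate 2, lay below all of PBS once and old. The levels were 12.5, 13.2 and 19.3 CPM after 5-FU once, above all libraries of PBS once, and 13.1, 7.80 and 13.9 CPM after 5-FU 3 times, which overlapped PBS 3 times. The log2 differences were 0.64 (95% interval 0.11 to 1.16, unadjusted p = 0.0110, adjusted p = 0.216) and 0.54 (95% interval −0.12 to 1.21, adjusted p = 0.382), and neither passed the threshold. In old HSCs Cxcr4 was 9.53, 9.57 and 12.03 CPM, a log2 difference of 0.12 from PBS once (95% interval −0.31 to 0.54, adjusted p = 0.825). All 6 neighbouring pairs of groups ordered by mean overlapped for this gene.

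Vcam1 (chr3:116109949-116129688, minus strand), the counter-receptor of α4β1, was low and uneven, at 0 to 6.89 CPM with 2 libraries at 0. It was 5.21, 5.61 and 2.11 CPM in PBS once and 1.04, 2.10 and 2.69 CPM in 5-FU once at day 6, a log2 fold change of −1.13 with overlap (95% interval −2.51 to 0.25, adjusted p = 0.142). In PBS 3 times it ranged from 0 to 4.09 CPM, and in 5-FU 3 times at day 6 the 3 libraries lay close together at 4.17, 3.74 and 3.94 CPM. The latter fold change had a wide interval (0.90, 95% interval −2.35 to 4.14, adjusted p = 0.637). Old HSCs had 0, 0.498 and 1.02 CPM of Vcam1, below all libraries of PBS once, with a log2 difference of −3.06 (95% interval −5.90 to −0.22, unadjusted p = 0.0177, adjusted p = 0.222). Of the exonic bases of Vcam1, 0.69% are shared with the antisense gene Gm43109, and whether the deposited counts used strand is not stated.

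**Figure D3:**
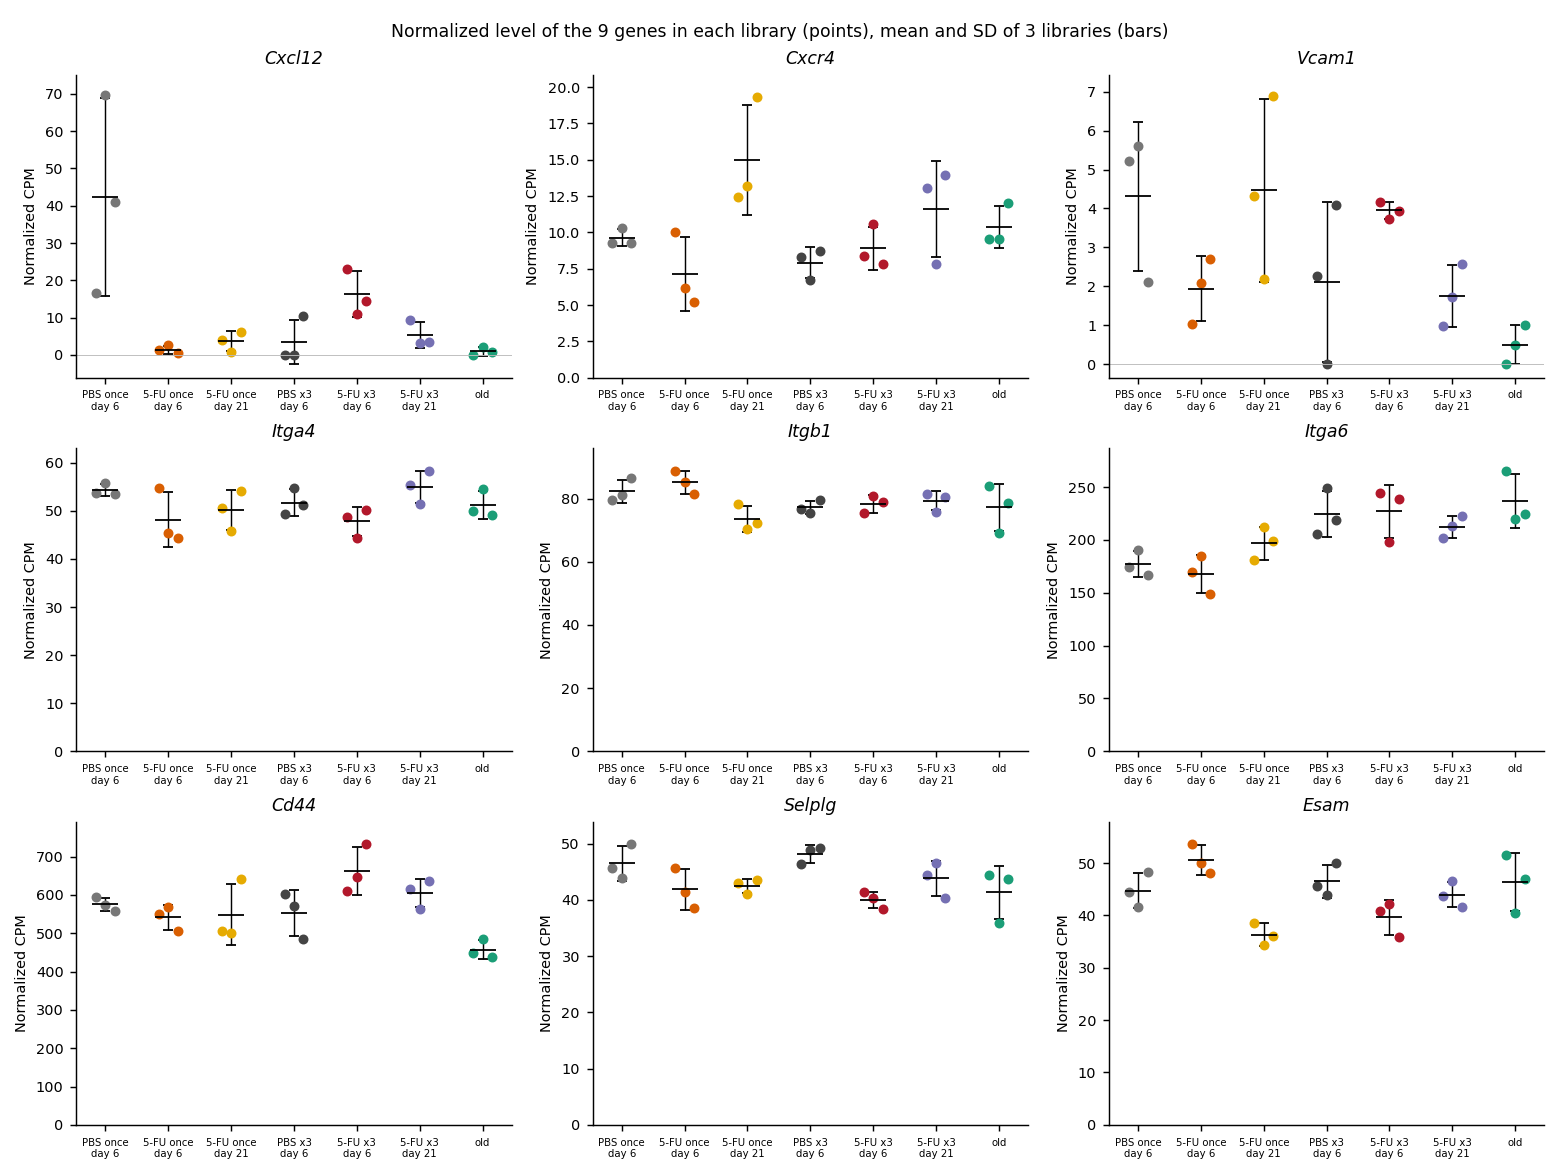
Normalized CPM of the 9 genes in each of 21 libraries (points), by group, with the mean and SD of 3 libraries; each vertical axis is linear and includes 0. Cxcl12 spans 0 to 69.6 CPM, whereas the levels of Itga4 (44.4 to 58.2 CPM) and Itgb1 (69.2 to 88.8 CPM) are nearly level across the 7 groups.

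The α4β1 chains were the steadiest members. Itga4 ranged from 44.4 to 58.2 CPM over all 21 libraries, 1.31 times from the lowest to the highest, and Itgb1 from 69.2 to 88.8 CPM, 1.28 times. For Itga4 the log2 fold change at day 6 was −0.16 (95% interval −0.42 to 0.10, adjusted p = 0.253) after 5-FU once and −0.12 (95% interval −0.36 to 0.12, adjusted p = 0.384) after 5-FU 3 times. For Itgb1 these were 0.06 (95% interval −0.14 to 0.26, adjusted p = 0.570) and 0.01 (95% interval −0.19 to 0.22, adjusted p = 0.910). The groups overlapped for both genes at both times. Itga4 lies at chr2:79255426-79333123 on the plus strand and Itgb1 at chr8:128685654-128733200 on the plus strand. Itga4 shares 8.04% of its exonic bases with the antisense gene Cerkl.

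Itga6 (chr2:71745616-71858416, plus strand), whose product binds laminin, varied more between groups than its partner Itgb1. It was 174, 190 and 167 CPM in PBS once and 170, 185 and 149 CPM in 5-FU once at day 6, which overlapped. In PBS 3 times it was 205.5, 248.9 and 219.2 CPM, above all libraries of PBS once, and in old HSCs 266, 220 and 224 CPM, above them as well. The log2 difference from PBS once was 0.35 (SE 0.095, unadjusted p = 0.00772, adjusted p = 0.229) for PBS 3 times and 0.43 (SE 0.099, unadjusted p = 0.00262, adjusted p = 0.0832) for old HSCs, so that neither passed in the edgeR fit of the groups compared. DESeq2 called both, with adjusted p of 0.0219 and 0.00207, and edgeR with all 21 libraries in 1 fit called the latter (0.43, adjusted p = 0.036). With PBS 3 times as the control, the difference of old HSCs was 0.07 (adjusted p = 0.924). These comparisons share the PBS once libraries. Against PBS 3 times, 5-FU 3 times at day 6 gave a log2 fold change of 0.01 (95% interval −0.30 to 0.32, adjusted p = 0.953).

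Cd44 (chr2:102811141-102901665, minus strand) had the lowest levels in old HSCs, 449, 484 and 439 CPM, and the highest mean in 5-FU 3 times at day 6, 611, 645 and 733 CPM. In 5-FU 3 times at day 21 it was 614, 564 and 637 CPM, and old HSCs were lower in all libraries, with a log2 difference of −0.40 (SE 0.077, 95% interval −0.61 to −0.19, adjusted p = 0.0418). Old HSCs were also below all libraries of PBS once (594, 574 and 557 CPM), with a log2 difference of −0.32 (SE 0.065, adjusted p = 0.0572, and from 5.15e-05 to 0.282 over 14 alternatives, 2 of them past the threshold). The call against 5-FU 3 times was lost when any 1 of the 6 libraries was left out, with adjusted p from 0.0536 to 0.136. The old group and its neighbour in the order of means, 5-FU once at day 6, did not overlap.

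At day 6 after 5-FU once, Cd44 was 550, 569 and 505 CPM and overlapped PBS once (log2 fold change −0.08, 95% interval −0.25 to 0.10, adjusted p = 0.429). After 5-FU 3 times all 3 libraries were above those of PBS 3 times (601, 571 and 486 CPM), with a log2 fold change of 0.26 (SE 0.10, unadjusted p = 0.0414, adjusted p = 0.135). That change did not pass the threshold.

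Selplg (chr5:113818536-113832644, minus strand) was the member called at day 6. It was 46.3, 48.8 and 49.2 CPM in PBS 3 times and 41.3, 40.3 and 38.4 CPM in 5-FU 3 times, with no overlap, and fell by 0.27 on the log2 scale (SE 0.075, 95% interval −0.48 to −0.06, adjusted p = 0.0472). The call was lost when any 1 of the 6 libraries was left out (adjusted p from 0.0820 to 0.133), while the change kept its direction and lay between −0.37 and −0.24 over 14 alternatives. After 5-FU once it was 45.7, 41.5 and 38.5 CPM against 45.6, 44.0 and 49.9 CPM in PBS once, which overlapped, with a log2 fold change of −0.14 (95% interval −0.40 to 0.12, adjusted p = 0.314). The difference between the 2 changes was −0.12 (SE 0.11, adjusted p = 0.676). Over all groups Selplg ranged from 36.0 to 49.9 CPM.

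Esam (chr9:37528078-37538319, plus strand) was 53.6, 50.1 and 48.1 CPM in 5-FU once at day 6 and 44.4, 41.5 and 48.2 CPM in PBS once, with a log2 fold change of 0.19 (95% interval −0.05 to 0.43, adjusted p = 0.153). After 5-FU 3 times it was 40.8, 42.2 and 35.9 CPM against 45.6, 43.9 and 50.0 CPM in PBS 3 times, and all 5-FU libraries were lower. That log2 fold change was −0.24 (95% interval −0.50 to 0.03, unadjusted p = 0.0443, adjusted p = 0.140). The interval includes 0 because it used fewer degrees of freedom than the test. The first groups overlapped and the latter did not, and the difference between the 2 changes was −0.41 (SE 0.13, unadjusted p = 0.00709, adjusted p = 0.144), which DESeq2 called (−0.42, adjusted p = 0.0333). The lowest Esam levels were those of 5-FU once at day 21 (38.6, 34.3 and 36.1 CPM), all below PBS once, with a log2 difference of −0.30 (unadjusted p = 0.0151, adjusted p = 0.245). The 12 endothelial markers summed to 679 to 790 CPM in 5-FU once against 478 to 510 CPM in PBS once, and to 603 to 625 CPM in 5-FU 3 times against 494 to 530 CPM in PBS 3 times, with 1 or 2 of the 12 at 0 in each of these groups. Egfl7 alone averaged 460 against 178 CPM and 332 against 219.8 CPM, and the median log2 fold change of the tested markers was −0.21 after 5-FU once and 0.37 after 5-FU 3 times. Cdh5, which defines the endothelial lineage, was at most 0.413 CPM in any library.

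**Figure D4:**
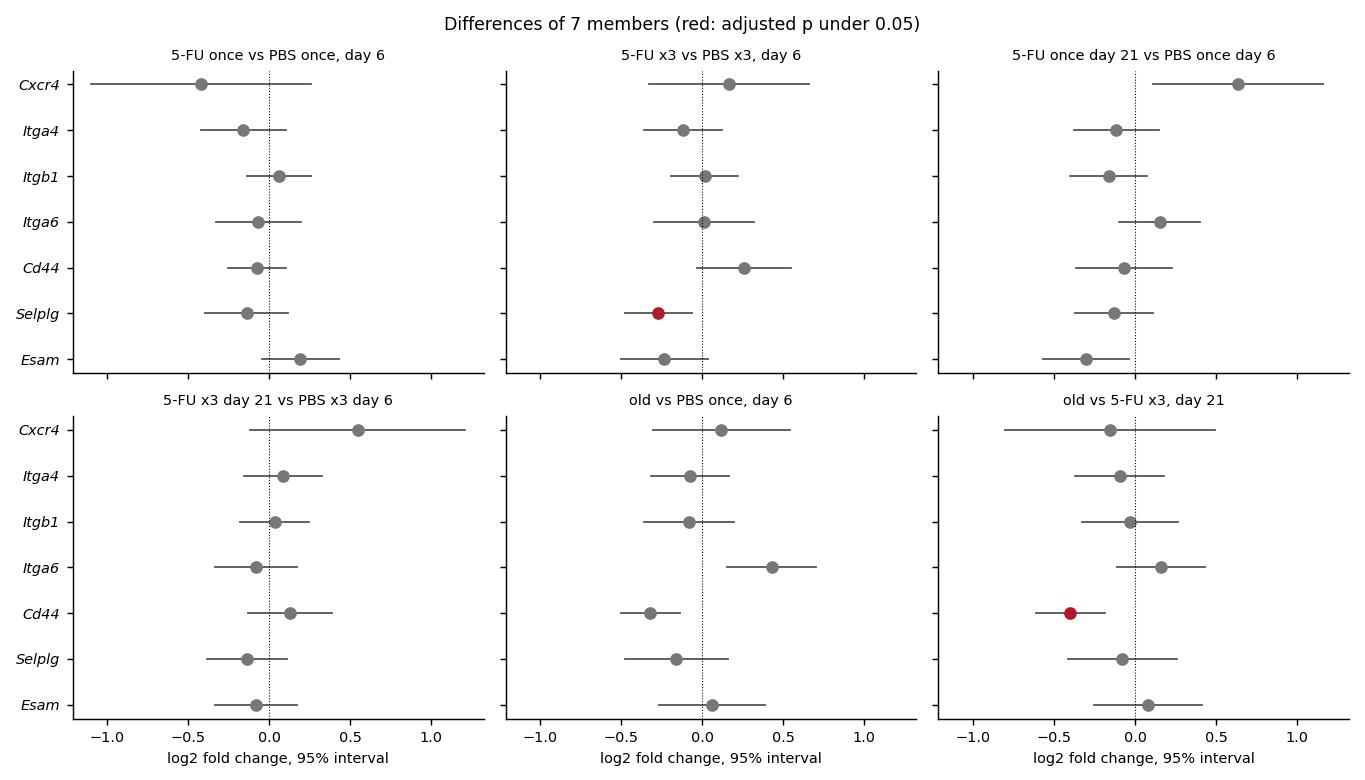
Log2 fold changes of 7 members with 95% intervals in 6 comparisons, with changes past an adjusted p of 0.05 in red; Cxcl12 and Vcam1, whose intervals are wider, are not drawn. Selplg after 5-FU 3 times at day 6 (−0.27) and Cd44 in old HSCs against 5-FU 3 times at day 21 (−0.40) are the coloured points.

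Counted over the 8 members other than Cxcl12, all of which passed the filter on low counts, the calls are given beside the share of all genes tested, and with 8 members nothing is read from their difference. At day 6 after 5-FU once, 0 of 8 passed an adjusted p of 0.05 in edgeR, where 22.2% of 12759 genes did (11.5% higher and 10.6% lower), and 0 of 8 had an unadjusted p under 0.05. DESeq2 called none of them there. After 5-FU 3 times, 1 of 8 passed, where 18.1% of 12729 genes did (9.84% higher and 8.3% lower). Of the called genes, 52.0% were higher after 5-FU once and 54.2% after 5-FU 3 times, and with library size as the only scaling these shares were 41.0% and 35.6%. The difference between the 2 changes called none of the 8 in edgeR, against 0.65% of all genes, with an unadjusted p under 0.05 for 2 of them, and DESeq2 called Esam.

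The comparisons away from day 6 gave fewer calls over all genes. For day 21 against the PBS group of the same number of administrations, 0.221% of genes passed after 5-FU once and 0.0475% after 5-FU 3 times. Between the PBS groups 0.0156% passed, and between the 5-FU groups of day 21 0.00802% did, with none of the 8 members in any of these 4. Unadjusted p was under 0.05 for 2, 0, 1 and 2 of the 8 members, and DESeq2 called 0, 0, 1 and 0 of them. Old HSCs differed from PBS once in 1.88% of genes and from 5-FU 3 times at day 21 in 2.24%, with 0 and 1 of the 8 members, and DESeq2 called Cd44, Itga6 and Vcam1 in the former. The comparisons with PBS once share its libraries, as do those with PBS 3 times.

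The wider lists around these receptors held partners and signalling genes of the Cxcl12 axis, the other integrins, integrin activators, selectins with their ligands and modifying enzymes, and junction and immunoglobulin family adhesion genes. Of 88 genes tested with at least 1 CPM on average in either group, 10 rose and 21 fell after 5-FU once, 35.2% in all, and of 87 tested after 5-FU 3 times 11 rose and 12 fell, 26.4% in all. Over all genes, without that minimum of 1 CPM, the shares were 22.2% and 18.1%, and the difference was not tested. By list, 4 of 28 axis genes rose and 7 fell after 5-FU once, and 5 rose and 2 fell after 5-FU 3 times. Of 14 other integrins, 1 rose and 4 fell, then 2 rose and 3 fell. Of 15 activators, 0 rose and 4 fell, then none passed. Of 16 selectin genes, 4 rose and 3 fell, then 3 rose and 1 fell, and of 15 and 14 junction genes, 1 rose and 3 fell, then 1 rose and 6 fell. The medians of the lists lay between −0.12 and 0.02 after 5-FU once and between −0.39 and 0.02 after 5-FU 3 times, beside medians near 0 for all genes. Markers of other cells moved in the same comparisons. The 13 granulocyte markers summed to 106 to 116 CPM in 5-FU once against 176 to 246 CPM in PBS once, with 6 of 10 tested lower, and to 103 to 136 CPM against 208 to 257 CPM after 5-FU 3 times, with 3 of 9 lower. Sums of 9 erythroid markers were 104 to 115 CPM against 31.5 to 41.1 CPM, then 48.8 to 65.4 CPM against 31.5 to 48.7 CPM. The 12 HSC markers summed to 3644 to 3797 CPM against 4634 to 5104 CPM, then 3363 to 3499 CPM against 4458 to 4822 CPM. Their part in the changes of the lists was not tested.

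Of the selectin genes, Selp rose at both administrations. It encodes P-selectin, a receptor for PSGL-1 that platelets and endothelium carry, and was 11.2, 8.99 and 9.68 CPM in PBS once and 41.5, 41.7 and 39.0 CPM in 5-FU once, a log2 rise of 2.04 (SE 0.11, adjusted p = 0.000368). After 5-FU 3 times it was 58.2, 57.9 and 53.1 CPM against 23.8, 31.7 and 33.8 CPM, a rise of 0.92 (SE 0.14, adjusted p = 0.0070). The rise of Selp was smaller after the third administration than after the first (difference −1.11, SE 0.18, adjusted p = 0.0184, and 0.0521 without PBS once replicate 3 or 0.0503 without 5-FU once replicate 2), and its PBS levels were 9.97 CPM once and 29.8 CPM 3 times on average. With all 6 PBS libraries as the control the rise after 5-FU once was 1.03 (adjusted p = 0.0917).

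In old HSCs, Selp averaged 63.1 CPM and was higher than in PBS once, the group with the lowest mean (9.97 CPM), by 2.67 on the log2 scale (SE 0.16, adjusted p = 0.000353). With PBS 3 times as the control the difference was 1.081 (adjusted p = 0.0411). Selp was also higher at day 21 after 5-FU once than in PBS once, with means of 44.5 and 9.97 CPM (2.16, SE 0.12, adjusted p = 0.00282), and averaged 54.7 CPM at day 21 after 5-FU 3 times (0.87 against PBS 3 times, adjusted p = 0.0862). Cd34, a sialomucin of stem and endothelial cells, fell by 0.68 (SE 0.086, adjusted p = 0.00351) and by 0.71 (SE 0.10, adjusted p = 0.00668) at day 6.

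Of the integrins, the platelet receptor chains Itga2b and Itgb3 fell. Itga2b was 77.3, 73.4 and 86.1 CPM in PBS once and 22.0, 18.4 and 24.2 CPM in 5-FU once, a fall of 1.86 (SE 0.12, adjusted p = 0.000597), and it fell by 0.67 (SE 0.087, adjusted p = 0.00472) after 5-FU 3 times, with a difference between the changes of 1.20 (SE 0.15, adjusted p = 0.0149). Itgb3 fell by 2.24 (SE 0.27, adjusted p = 0.00318) and by 1.54 (SE 0.22, adjusted p = 0.00586). Itgb2, the β2 chain of leukocyte integrins, rose by 0.66 (SE 0.16, adjusted p = 0.0271) and 0.98 (SE 0.11, adjusted p = 0.00369), and the former call was lost in 4 of the 6 fits that left out 1 library (adjusted p up to 0.0773). The 10 megakaryocyte markers, of which Itga2b is one, summed to 1231 to 1295 CPM in 5-FU once against 2252 to 2378 CPM in PBS once, and to 987 to 1103 CPM in 5-FU 3 times against 1982 to 2279 CPM in PBS 3 times, with 7 and 5 of 10 called lower and none at 0 in these groups, and their part in the changes was not tested. Itgam, named after its values were seen because it encodes Mac-1, averaged 6.20 CPM in 5-FU once and 12.8 CPM in PBS once (log2 fold change −1.03, adjusted p = 0.0306), and 11.4 CPM in 5-FU 3 times and 12.2 CPM in PBS 3 times (−0.10, adjusted p = 0.868).

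Around the ligand and its receptor, Dpp4, the protease that inactivates CXCL12, fell from 72.4, 70.3 and 72.5 CPM to 37.0, 29.0 and 19.9 CPM after 5-FU once, by 1.31 (SE 0.20, adjusted p = 0.00570), and by 1.51 (SE 0.16, adjusted p = 0.00265) after 5-FU 3 times. It was also lower in old HSCs than in PBS once, by a log2 difference of −0.88 (SE 0.14, adjusted p = 0.0248), a call lost without any of 4 libraries, namely the 3 of PBS once and old replicate 1 (adjusted p from 0.0671 to 0.0893). Focal adhesion kinase, encoded by Ptk2, rose by 0.67 (SE 0.096, adjusted p = 0.00487) and 1.26 (SE 0.17, adjusted p = 0.00530), whereas its relative Ptk2b fell by 0.53 (SE 0.072, adjusted p = 0.00411) after 5-FU once. Arrb2, an arrestin of chemokine receptors, rose by 0.84 (SE 0.12, adjusted p = 0.00664) after 5-FU 3 times.

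Of the 4 of 15 integrin activators and adaptors called lower after 5-FU once, 3 are named by the rule, and Lims1 fell by 0.55 (SE 0.054, adjusted p = 0.00169), Vcl by 0.32 (SE 0.087, adjusted p = 0.0384) and Zyx by 0.23 (SE 0.062, adjusted p = 0.0385). The calls of Vcl and Zyx were each lost in 5 of the 6 fits that left out 1 library. Of the junction genes, Alcam fell by 1.12 both times (SE 0.20 and 0.11, adjusted p = 0.00991 and 0.00259). Icam4 fell by 1.31 (SE 0.17, adjusted p = 0.00357) after 5-FU once and by 0.42 (SE 0.11, adjusted p = 0.0426) after 5-FU 3 times. Emcn fell by 0.45 (SE 0.087, adjusted p = 0.0156) after 5-FU 3 times, and Nectin2 rose by 1.24 (SE 0.16, adjusted p = 0.00366) and 1.09 (SE 0.22, adjusted p = 0.0169). After 5-FU 3 times the call of Emcn was lost without PBS 3 times replicate 1 or 5-FU replicate 3 (adjusted p = 0.0504 and 0.0556), and that of Nectin2 without 5-FU replicate 1 or 3 (0.0559 and 0.0612). Of the 16 genes named from these lists, 10 passed the threshold after both 5-FU once and 5-FU 3 times, all 10 in the same direction. Itga2b and Selp, 2 of the 16, differed between the changes. The 16 were named by adjusted p in these same comparisons, so the count of 10 follows in part from that choice. The share of all genes that passed both times was not computed, and nothing is read from the count.

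**Figure D5:**
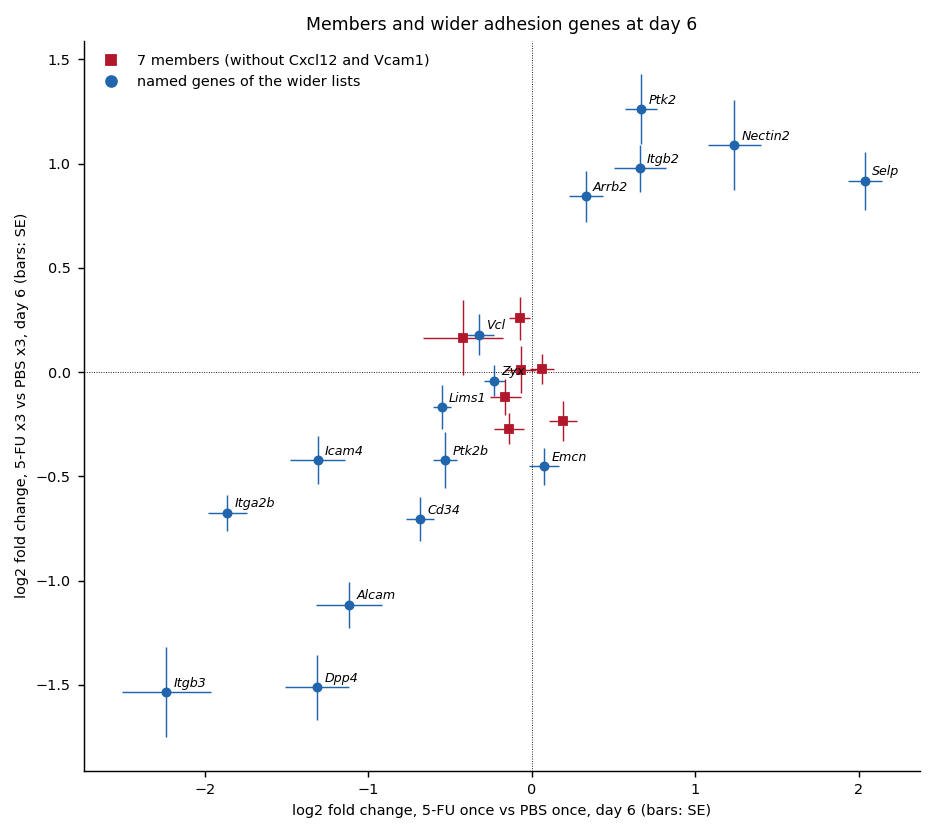
Log2 fold change at day 6 after 5-FU once (horizontal axis) and 5-FU 3 times (vertical axis), each against its PBS group, with SE as bars, for 7 members (red squares) and the 16 named genes of the wider lists (blue circles). Cxcl12 (−4.88 and 2.24) and Vcam1 (−1.13 and 0.90) are not drawn. The 7 members drawn lie near the origin, whereas Selp (2.04 and 0.92) and Itgb3 (−2.24 and −1.54) lie far from it. The named genes were chosen by adjusted p in these same comparisons, so their distance from the origin follows from that choice.

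The members varied largely apart from each other. Over the 36 pairs, Pearson's r of log2 levels over 21 libraries ranged from −0.47 to 0.71 with a median of 0.02, and it was over 0.5 only for Itgb1 with Esam (0.71) and Cxcl12 with Vcam1 (0.64). Of 12044 genes with at least 1 CPM on average, those most like Cxcl12 over the 21 libraries were Hp (r = 0.73), Tnc (0.72), Hjurp (0.71), Zbtb6 (0.70) and Jrk (0.70). Hp encodes haptoglobin and Tnc a matrix glycoprotein, and both had their highest level, 9.14 and 29.7 CPM, in the same library of PBS once as Cxcl12, replicate 2. For Cxcr4 they were Setd1b (0.79), Mbnl2 (0.79), Smg8 (0.77), Sfxn3 (0.76) and Leng1 (0.75), and for Vcam1 Trak2 (0.75), Agbl5 (0.74), Nup160 (0.74), Slc28a2 (0.71) and Plcg1 (0.70). The points share groups and library depth, and these values describe likeness across libraries only.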

How the data were processed

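RNA was sequenced from HSCs in 21 libraries, 3 per group. The deposited values were raw counts per gene. The authors made libraries with SMART-Seq v4 and Nextera XT and aligned single-end reads to mm10 with TopHat, and quantified expression with Cuffdiff at default parameters. Which program wrote the whole-number counts, and whether it used strand, is not given in the sources used here. Counts were fitted per comparison with the quasi-likelihood test of edgeR 4.0.16 (R 4.3.3), with TMM factors, filterByExpr and Benjamini-Hochberg adjustment over all genes tested, and an adjusted p under 0.05 was called. Day 6 changes were compared by an interaction term over 4 groups. DESeq2 1.42.0, other scalings and filters, all 21 libraries in 1 fit, other PBS controls, a replicate block and leaving out each library were alternatives. On simulated data edgeR recovered 84.1% of 195 changed genes, with 5.75% of calls false, among 12582 genes for 5-FU once against PBS once. The recovered changes had a median size of 2.01 on the log2 scale. Smaller changes were not simulated, so these shares do not apply to changes as small as those of most members. DESeq2 was run on the same simulated data and recovered 89.2% of the changed genes. The counts were drawn with dispersions estimated by edgeR. The share of changed genes was far below the 22.2% called in the data. The shares of false calls therefore cannot rank DESeq2 and edgeR on the data.

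The 9 members and all lists were chosen with earlier results of these data known. All members are described, and from each wider list up to 3 genes past the threshold were named for each day 6 comparison by adjusted p. A gene that this rule names is not reported here. The p-values measure the spread between these libraries. Same-numbered libraries did not deviate together (r from −0.0513 to 0.0362), so numbers were not taken as pairs. Gene positions are from GENCODE M21, and promoter sequences from RefSeq were matched for 5 of 9 members. Depth of 22184885 to 38649033 counts per library sets a floor of 3 counts, which covers counting error only. No column lacked a sample.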

Additional observations from a re-analysis of the deposited data

Results flagged for a closer look

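Cxcl12 moved in opposite directions at day 6, with every library lower after 5-FU once (log2 fold change −4.88) and every library higher after 5-FU 3 times (2.24) than in the PBS group of the same number of administrations. The change of 2.24 had an SE of 1.46, and the lowest 5-FU library was only 1.06 times the highest PBS library. In PBS 3 times, 2 libraries were at 0, so this fold rests on replicate 3. The difference between the changes of Cxcl12 was not tested, because its values chose the gene.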

How the results depend on the processing

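Over 106 results and 1485 tested alternatives, 1400 kept their direction and their side of the threshold, 50 lost and 8 gained a call, and 27 turned their direction. With a replicate block, genes called were 1509 for 5-FU 3 times at day 6, 55 for the difference between the changes, 3 for 5-FU once at day 21, 104 for old against PBS once and 111 for old against 5-FU 3 times at day 21, and 0 for the other 3 comparisons that moved, with 0 members called in each comparison where the block changed a member call. DESeq2 called 715 genes and 1 member for the difference between the changes, and 725 and 592 genes at day 21 after 5-FU once and 3 times. It called 547 genes and 1 member between the PBS groups and 161 genes between the 5-FU groups of day 21. For old it called 824 genes and 3 members against PBS once and 985 genes against 5-FU 3 times. On simulated data 19.8% of its calls for 5-FU once against PBS once were false, against 5.75% for edgeR. The simulation used dispersions estimated by edgeR, so these shares do not show which of the calls on the data are false. With all 21 libraries in 1 fit, 257, 185, 19, 16 and 606 genes were called for 5-FU once and 3 times at day 21, the PBS groups, the 5-FU groups of day 21 and old against 5-FU 3 times, with 0 members for 5-FU 3 times at day 6 and 1 for old against PBS once. Library size as the only scaling called 83 and 15 genes at day 21 and 1 member for old against PBS once, and moved the median of all genes to −0.111 for 5-FU 3 times at day 6. RLE factors called 3 and the filter of 10 counts 23 genes for 5-FU 3 times at day 21, the filter of 1 count called 0 members for 5-FU 3 times at day 6, and PBS 3 times as control of old called 128 genes. The causes were not tested.

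Leaving out 1 library gave 1563 to 1947 genes and 0 to 1 members for 5-FU once at day 6, 1231 to 1582 and 0 to 0 for 5-FU 3 times, 38 to 170 for the difference, 1 to 32 and 1 to 4 at day 21, 0 to 1 between the PBS groups, 0 to 0 between the 5-FU groups of day 21, 111 to 150 for old against PBS once and 63 to 178 against 5-FU 3 times, with 0 to 0 members in the last 7.

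The turned values had an adjusted p of 0.547 to 1.00, none past the threshold. For 5-FU 3 times at day 6 they were −0.0851, −0.0265, −0.003 and −0.0039 for Itgb1 (library size only, all 6 PBS libraries, and 2 left-out libraries) and −0.0912, −0.0493, −0.0014, −0.0422 and −0.0217 for Itga6 (library size only and 4 left-out libraries). At day 21 Vcam1 gave −0.004, −0.0058, −0.2782 and −0.4129 after 5-FU once and 0.4957, 0.634 and 0.0186 after 5-FU 3 times. The others were 0.01 (Itga6, 5-FU once), −0.0133 (Itga4, difference), 0.0297 (Cd44, PBS groups), −0.1849 and −0.0018 (Cxcl12 and Selplg, 5-FU groups of day 21), −0.012, −0.0076 and −0.0221 (Cxcr4 and Esam, old against PBS once), and 0.0442, 0.0162 and −0.0054 (Itgb1, Selplg and Esam, old against 5-FU 3 times). With 1 library left out, the results with a turned value ranged from −0.1399 to 0.01 (Itga6, 5-FU once), from −0.0039 to 0.0448 (Itgb1) and from −0.0493 to 0.1045 (Itga6) for 5-FU 3 times, from −0.4129 to 0.3802 and from −0.8607 to 0.634 (Vcam1, day 21 after 5-FU once and 3 times), from −0.1135 to 0.0297 (Cd44), from −0.1849 to 1.1294 (Cxcl12), from −0.0018 to 0.1021 (Selplg), from −0.012 to 0.1747 (Cxcr4) and −0.0221 to 0.1528 (Esam) for old against PBS once, and from −0.0986 to 0.0442 (Itgb1), −0.1358 to 0.0162 (Selplg) and −0.0054 to 0.1726 (Esam) for old against 5-FU 3 times.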
